A study of Homo sapiens with 5 samples.

Results

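The imprinted genes of the Prader-Willi locus lie on the long arm of chromosome 15, and H3K9me3 peaks were read here over 8 of them: MKRN3, MAGEL2, NDN, NPAP1, SNRPN, SNURF, SNHG14 and UBE3A. They are 8 of the 59679 genes annotated by RefSeq on chromosomes 1 to 22, X and Y (GRCh38.p14), chosen by name and not by any measured value. All peaks that overlapped these gene bodies, or lay anywhere from the first base of MKRN3 to the last base of UBE3A (chromosome 15, positions 23565674 to 25439056, GRCh38), were taken. This interval spans 1873 kb and held 36 of 24665 peaks in the list named EV, 7 of 12650 in the list named KD, and 32 of 14362 in a list whose name gives no genotype. These totals are the peaks on chromosomes 1 to 22, X and Y, of 26364, 13455 and 15215 deposited. The peaks on other sequences were left out, and every share or rank over a list refers to the former.

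Chromatin immunoprecipitation with sequencing was used to map H3K9me3 (histone H3 trimethylated on lysine 9), which marks silent chromatin. The cells were HEK293T, an established line derived from embryonic human kidney and carrying viral transforming genes. The labels name 1 antibody library for each of the genotypes WT, EV and KD, and 1 input for WT and for EV, but none for KD. EV is taken to mean empty vector, and KD to mean knockdown of KCNQ1OT1, a long non-coding RNA of an imprinted domain on chromosome 11, written KCNQ1OT1_K in the design text. The sources used here do not give the meaning of the suffix, the knockdown method or the number of clones. The list without a genotype was assigned to no sample, so its peaks are described beside the others and no WT comparison was made. With 1 library per group no test between EV and KD was possible, and every EV and KD difference below lacks a replicate check. The lists hold no read counts, so the depth is unknown, and peak numbers depend on depth. RNA was not measured in these files, so the knockdown was not checked. Whether fewer cells carried the mark at a place or fewer of its histones were marked cannot be told apart, and the lists do not separate the parental alleles.

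In an imprinted domain, gene activity depends on which parent a chromosome came from. At this locus an imprinting centre at the start of SNURF and SNRPN is DNA-methylated on the maternal chromosome, and MKRN3, MAGEL2, NDN, NPAP1, SNRPN, SNURF and SNHG14 are expressed from the paternal one. UBE3A is expressed from the maternal chromosome in neurons, where the far end of the long SNHG14 transcript runs antisense to it, and from both chromosomes in most other tissues. Loss of the paternal genes causes Prader-Willi syndrome, and loss of maternal UBE3A causes Angelman syndrome. Imprinting centres commonly carry H3K9me3 on the methylated allele, where the zinc finger proteins ZFP57 and ZNF445 recruit the enzyme that writes it.

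Peaks lay in 3 of the 8 gene bodies in EV, 2 in KD and 3 in the list without a genotype. Among all annotated genes these calls were made for 13.2%, 6.14% and 4.58%. MAGEL2, SNRPN and SNHG14 carried peaks in EV, and of these SNRPN and SNHG14 also in KD. In the list without a genotype they were SNRPN, SNURF and SNHG14. MKRN3, NDN, NPAP1 and UBE3A had no peak in their bodies in any of the 3 lists. Long genes meet peaks more often. Of the 4402 gene bodies over 100 kb, 56% had a peak in EV, 28.6% in KD and 25.4% in the list without a genotype, and SNRPN, SNHG14 and UBE3A belong to this class. Of the 35609 gene bodies under 10 kb, 4.02% had one in EV, 2.33% in KD and 1.56% in the list without a genotype, and this class holds MKRN3, MAGEL2, NDN and NPAP1. SNRPN and SNURF lie inside SNHG14 and share its peaks, so these 3 are not independent observations.

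**Figure D1:**
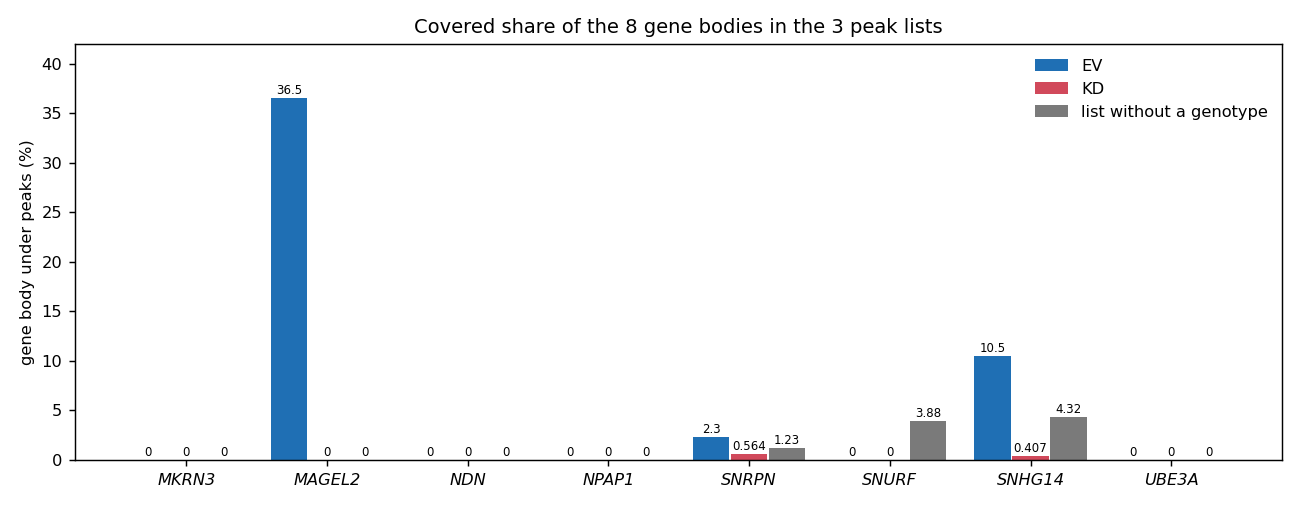
Share of each gene body under peaks (%, vertical axis) for the 8 genes in the EV list, the KD list and the list without a genotype, 1 library or list per bar and no error bars. MAGEL2 stands at 36.5% in EV with no peak in the other lists, SNHG14 at 10.5%, 0.407% and 4.32%, and 4 genes are at 0 in all 3 lists.

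At least 10% of the gene body lay under peaks for 2 of the 8 genes in EV, MAGEL2 and SNHG14, and for none in KD or in the list without a genotype. Over all genes the shares meeting this criterion were 2.66%, 1.27% and 0.969%, and 3.29% of those under 10 kb met it in EV. MAGEL2 was covered to 36.5% and SNHG14 to 10.5%, just over the criterion, and the next gene, SNRPN, to 2.30%. For SNHG14 the count rests on the snoRNA arrays described below. Covered share was lower in KD than in EV for all 3 genes with an EV peak. This was the common outcome for such genes, since 92.2% of the 7868 genes with an EV peak had a lower share in KD. Over all genes, most of which had no EV peak, the figure was 12.2%, and over those above 100 kb it was 53.3%. It was higher in KD for none of the 8 and for 1.85% of all genes, and none had a peak in KD alone, against 0.992%. One of the 8, MAGEL2, had a peak in EV and none in KD, against 8.04% of all genes and 2.28% of those under 10 kb.

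The interval as a whole had a higher covered share than its chromosome in EV and in the list without a genotype, and not in KD. In EV it held 19.2 peaks per Mb and 4.22% of its bases lay under peaks, against 7.05 peaks per Mb and 1.16% on chromosome 15 and 7.99 peaks per Mb and 1.64% over chromosomes 1 to 22, X and Y. In KD it held 3.74 peaks per Mb and 0.308% of its bases were covered, against 2.66 peaks per Mb and 0.327% on chromosome 15. Over chromosomes 1 to 22, X and Y the KD values were higher than in the interval, at 4.10 peaks per Mb and 0.667%. In the list without a genotype the interval had 17.1 peaks per Mb and 1.92% covered, against 4.97 and 0.644% on the chromosome. Over chromosomes 1 to 22, X and Y that list had 4.65 peaks per Mb and 0.965% covered. Covered length in KD divided by that in EV was 0.0731 in the interval, 0.282 on chromosome 15 and 0.408 over all these chromosomes. Outside the tandem snoRNA arrays, described below, the interval was covered to 1.31% in EV, 0.319% in KD and 0.740% in the list without a genotype. For EV and the list without a genotype these shares were slightly above those of chromosome 15. They were below those over all these chromosomes, so most of the excess in these lists lay in the arrays. Outside the arrays the interval's ratio of KD to EV covered length was 0.243, close to that of its chromosome.

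**Figure D2:**
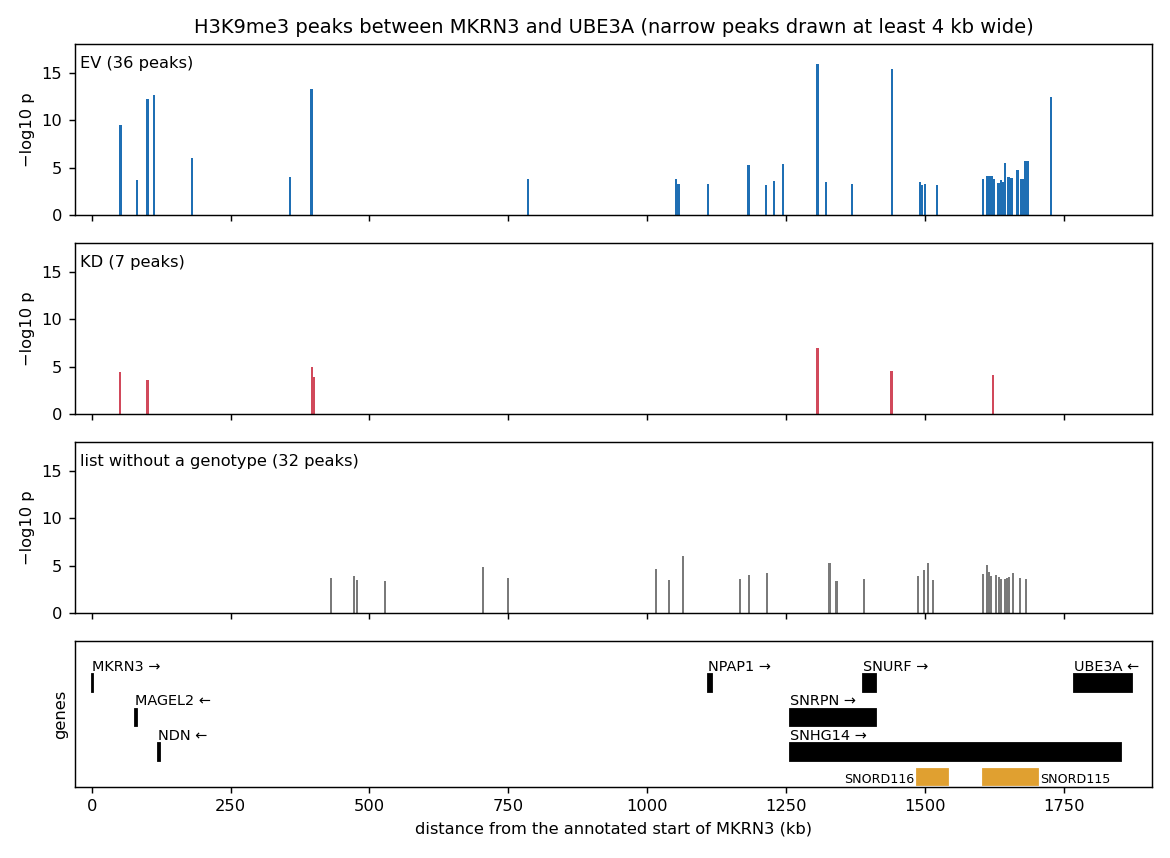
Peaks of the EV list (36), the KD list (7) and the list without a genotype (32) by distance from the start of MKRN3 (kb, horizontal axis) and −log10 p (vertical axis, each from its own list), above a map of the 8 genes with their direction and the SNORD116 and SNORD115 arrays in orange (peaks under 4 kb are widened to 4 kb). The tallest EV peaks stand around MAGEL2 and NDN, in LOC107984787 just before PWRN4, and in SNRPN and SNHG14, most KD peaks stand at the same places, and the list without a genotype has no peak left of PWRN4, a non-coding gene starting 409 kb from the start of MKRN3.

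MKRN3, NDN and MAGEL2 are small paternally expressed genes at the upstream end of the interval. MKRN3 encodes a ubiquitin ligase that restrains the onset of puberty, NDN encodes necdin, which restrains proliferation of neurons, and MAGEL2 encodes a partner of ubiquitin ligases that acts in protein recycling. NDN and MAGEL2 belong to the MAGE family. MAGEL2 (positions 23643549 to 23647867, minus strand) was the only one of them with a peak in its body, and only in EV. This peak ran from 23645952 to 23647528, was 1577 bp wide and was enriched 2.93-fold, at a −log10 p of 3.72. Fold enrichment is the signal of a peak over the caller's background, and both values are the authors'. It began 339 bp downstream of the annotated start of MAGEL2. It was a weak peak of its list, with 26.3% of the other EV peaks at or below its −log10 p. At the shorter list length of 12650 peaks, at a fold enrichment of at least 3 or at a −log10 q of at least 2 it was lost, and MAGEL2 then had no peak in either list. The nearest KD peak lay 17.9 kb from the body of MAGEL2.

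The genes whose covered shares were most like those of MAGEL2 over the 3 lists were C17orf114, CT47A4 and TMA7. They were chosen from 3656 protein-coding genes of similar length (within 2 times) by the smallest of the largest differences in covered share, which was 0.284 percentage points for C17orf114, 2.0 for CT47A4 and 3.74 for TMA7. All 3 had a peak in EV only, over 36.8%, 34.5% and 32.8% of the body, which follows from how they were chosen. The value of CT47A4 is uncertain, since this gene has near-identical neighbours that can share reads.

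The strongest peaks of this end stood between the genes. EV had a peak at 23616378 to 23618174, between MKRN3 and MAGEL2, enriched 5.42-fold at a −log10 p of 9.44. KD had one inside it, at 23616433 to 23617814, with 3.97 and 4.44 in its own list. Pairs of values below are in this order, fold enrichment and then −log10 p, each in its own list. Between MAGEL2 and NDN, EV had 2 peaks, at 23665361 to 23666967 (5.72 and 12.2) and at 23677398 to 23679025 (6.38 and 12.6). The first contained a KD peak of 738 bp at 23665750 to 23666487 (3.38 and 3.58), and the second had no KD partner. The second was the peak nearest to NDN, with its near edge 6.38 kb from the gene body, and NDN itself (positions 23685400 to 23687305) carried none. MKRN3 (positions 23565674 to 23568044) was 48.3 kb from the nearest EV peak and 48.4 kb from the nearest KD peak.

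Further along, both lists had a peak in LOC107984787, an uncharacterised non-coding gene. EV had it at 23960898 to 23962078 (5.33 and 13.3) and KD at 23961316 to 23961976 (3.99 and 4.93), with a second KD peak at 23964543 to 23965114 that no EV peak overlapped. This was the only KD peak of the interval without an EV partner. From MKRN3 up to PWRN4, a stretch of 409 kb, EV had 7 peaks and KD 4, and the list without a genotype had none. Between PWRN4 and NPAP1, a stretch of 701 kb, the list without a genotype had the most, with 9 peaks, while EV had 4 and KD none.

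NPAP1, a primate gene whose product has been linked to the nuclear pore, lies between PWRN1 and SNRPN (positions 24675775 to 24683393, plus strand). Its body had no peak in any list. An EV peak at 24674693 to 24675554, 862 bp wide (2.91 and 3.22), ended 221 bp before its annotated start. Its −log10 p was low, with 7.92% of the other EV peaks at or below it, and the nearest peak of another list lay 45.2 kb from that start. It was the only peak of any list to touch a promoter window of the 8 genes, a window being the 250 bases before an annotated start. RefSeq gives 13 such windows for the 8 genes, since SNRPN and UBE3A have several starts. Of all 34943 promoter windows, 1.67% lay under a peak in EV, 1.02% in KD and 0.346% in the list without a genotype.

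The promoter windows that the peaks came nearest to are shown 5′ to 3′ on the strand of the gene, with CG dinucleotides, the targets of DNA methylation, in capitals. The NPAP1 window (chr15:24675525-24675774, plus strand) is shown because the EV peak covered its first 30 bases. The MAGEL2 window (chr15:23647868-23648117, minus strand) precedes the start 339 bp from the EV peak. The SNURF window (chr15:24954737-24954986, plus strand), which is also a window of SNRPN, and the SNRPN window at a second start (chr15:24956050-24956299, plus strand) precede the starts nearest to the SNURF peak described next. The sequences are those of RefSeq, GRCh38.p14.
NPAP1: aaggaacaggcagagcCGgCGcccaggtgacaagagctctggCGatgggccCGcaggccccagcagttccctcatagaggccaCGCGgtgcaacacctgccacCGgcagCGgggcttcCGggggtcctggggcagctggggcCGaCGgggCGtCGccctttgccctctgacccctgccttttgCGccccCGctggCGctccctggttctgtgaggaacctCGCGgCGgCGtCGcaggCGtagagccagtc
MAGEL2: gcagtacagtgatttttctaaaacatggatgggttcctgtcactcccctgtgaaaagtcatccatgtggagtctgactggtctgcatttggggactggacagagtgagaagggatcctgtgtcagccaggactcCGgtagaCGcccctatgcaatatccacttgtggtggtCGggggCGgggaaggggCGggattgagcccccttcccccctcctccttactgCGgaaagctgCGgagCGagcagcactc
SNURF: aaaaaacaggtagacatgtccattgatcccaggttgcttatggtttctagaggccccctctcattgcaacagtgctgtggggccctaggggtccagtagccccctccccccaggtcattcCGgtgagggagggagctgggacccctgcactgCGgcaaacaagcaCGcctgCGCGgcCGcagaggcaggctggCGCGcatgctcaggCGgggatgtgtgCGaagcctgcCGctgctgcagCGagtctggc
SNRPN: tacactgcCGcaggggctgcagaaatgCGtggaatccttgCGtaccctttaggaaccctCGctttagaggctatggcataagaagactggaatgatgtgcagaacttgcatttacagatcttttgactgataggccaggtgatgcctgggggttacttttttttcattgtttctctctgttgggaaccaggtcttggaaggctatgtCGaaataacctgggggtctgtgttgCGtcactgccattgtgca

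The NPAP1 window held 22 CG dinucleotides, the SNURF window 12, the MAGEL2 window 8 and the second SNRPN window 6, beside a median of 11 over all promoter windows. NDN, with 30, and UBE3A, with 31 to 37 at its 3 starts, had more and lay farther from any peak. So did windows with fewer: MKRN3 had 10, SNHG14 had 4 and the remaining SNRPN windows had 6 and 1. The motif TGCCGC, recognised by ZFP57 when methylated, was searched on both strands, and its central CG is among the dinucleotides counted above. It occurred 2 times in the SNURF window, once in the second SNRPN window and once in that of NDN, and in none of the others. Of all promoter windows, 12.7% held it. A match is a description of the letters only.

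SNURF and SNRPN share a long transcript. SNRPN encodes the spliceosome protein SmN, SNURF a small protein read from the upstream part of the same transcript, and their shared start is part of the imprinting centre. SNURF (positions 24954987 to 24978723) had no peak in EV and none in KD. The list without a genotype had one, at 24956430 to 24957351, 922 bp wide (3.27 and 3.64). It began 1443 bp downstream of the start of SNURF and 130 bp downstream of the SNRPN start at 24956300, and it covered 3.88% of SNURF. Of gene bodies of 10 to 100 kb, 20.2% had a peak in EV, 8% in KD and 5.38% in that list. The nearest EV peak ended 19.1 kb upstream of the SNURF start, and the nearest KD peak lay 26.4 kb from the gene body.

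SNRPN (positions 24823637 to 24978723) was covered to 2.30% in EV by 3 peaks, to 0.564% in KD by 1 and to 1.23% in the list without a genotype by 3. The EV peak at 24871938 to 24873424 had the highest −log10 p of the interval (6.11 and 15.8), and 92.2% of the other EV peaks were at or below it. KD had its own strongest peak of the interval inside it, at 24872254 to 24873127, with 5.06 and 7.01. These peaks lay between annotated starts of SNRPN, with the EV peak 8.97 kb downstream of the start at 24862972. The other EV peaks in SNRPN, at 24887782 to 24888630 and 24934662 to 24935893, were weak, with a −log10 p of 3.48 and 3.28, and had no KD partner. The SNRPN peaks of the list without a genotype overlapped none of those in EV or KD.

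SNHG14 (positions 24823608 to 25419462, plus strand) is the long non-coding host transcript of the snoRNA copies, which in turn guide modification of other RNAs or regulate splicing. It was covered to 10.5% in EV by 21 peaks, to 0.407% in KD by 3 and to 4.32% in the list without a genotype by 20. As deposited, the EV value was uncommon for a long gene: of gene bodies over 100 kb, 0.613% reached 10% in EV and 0.0682% in each of the other lists. It rested on the tandem snoRNA arrays described next, since EV peaks outside them covered 0.972% of SNHG14. Dropping EV peaks enriched less than 3-fold left 8.57%. A −log10 q limit of 2 left 5.27%, and the 12650 strongest EV peaks left 3.04%. The EV share stayed above 10% with peaks within 3 kb merged (13.2%) and with the gene body extended by 2 kb (10.5%). Apart from those in SNRPN, a strong EV peak of SNHG14 lay at 25005136 to 25006822, enriched 6.61-fold, the highest of the interval, at a −log10 p of 15.4. KD had a peak inside it at 25005167 to 25006418 (3.795 and 4.56), and the list without a genotype had none there. A further EV peak at 25292713 to 25293246 was 534 bp wide and combined a −log10 p of 12.4 with a fold enrichment of 2.55, the lowest of the interval, and had no partner in the other lists.

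Most of the covered length of SNHG14 lay over its tandem snoRNA copies. SNORD116, whose loss is central to Prader-Willi syndrome, has 30 annotated copies over 56.9 kb (positions 25051476 to 25108352), and SNORD115, which has been linked to splicing of a serotonin receptor, has 48 over 99.1 kb (positions 25170723 to 25269858). The arrays held 56.5 kb of the 79.0 kb covered in the interval in EV (71.5%) and 23.2 kb of 35.9 kb (64.6%) in the list without a genotype. In KD they held 0.297 kb of 5.78 kb. Tandem copies resemble each other, so reads can match several of them, and the sources used here do not say how such reads were treated. Values over the arrays are uncertain for this reason.

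Over SNORD115 peaks covered 48.0% of the array in EV, 14.0% in the list without a genotype and 0.300% in KD. EV had 12 peaks there, the list without a genotype 13 and KD 1. Of the 48 copies, 24 lay at least partly under an EV peak, 7 under a peak of the list without a genotype and none under a KD peak. Among all gene bodies under 10 kb, at whose short end the copies lie, 4.02% had a peak in EV. The shares were 1.56% in the list without a genotype and 2.33% in KD. Neighbouring copies under the same peak are not independent calls. The widest EV peak of the interval, 13314 bp, ran from 25175449 to 25188762 and took in SNORD115-4 to SNORD115-10. It was weak for its width, at 3.37 and 4.12. The next widest, 8678 bp at 25244988 to 25253665, took in SNORD115-41 to SNORD115-44 (4.03 and 5.74). The single KD peak, 297 bp at 25188683 to 25188979, overlapped the end of the widest EV peak by 80 bp and no snoRNA copy.

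Over SNORD116, EV and the list without a genotype each had 4 peaks, which covered 15.6% and 16.5% of the array, and KD had none. The lists overlapped at 2 of these EV peaks, by 417 and 520 bp. Of the 30 copies, 4 lay under EV peaks (SNORD116-3, SNORD116-6, SNORD116-20 and SNORD116-21) and 2 under peaks of the list without a genotype (SNORD116-2 and SNORD116-8). No copy was under a peak in both. Among all gene bodies under 10 kb, 4.02% had a peak in EV, 1.56% in the list without a genotype and 2.33% in KD. The EV peaks were 1779 to 2752 bp wide with a −log10 p from 3.15 to 3.49, in the lowest 18.5% of the EV list.

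**Figure D3:**
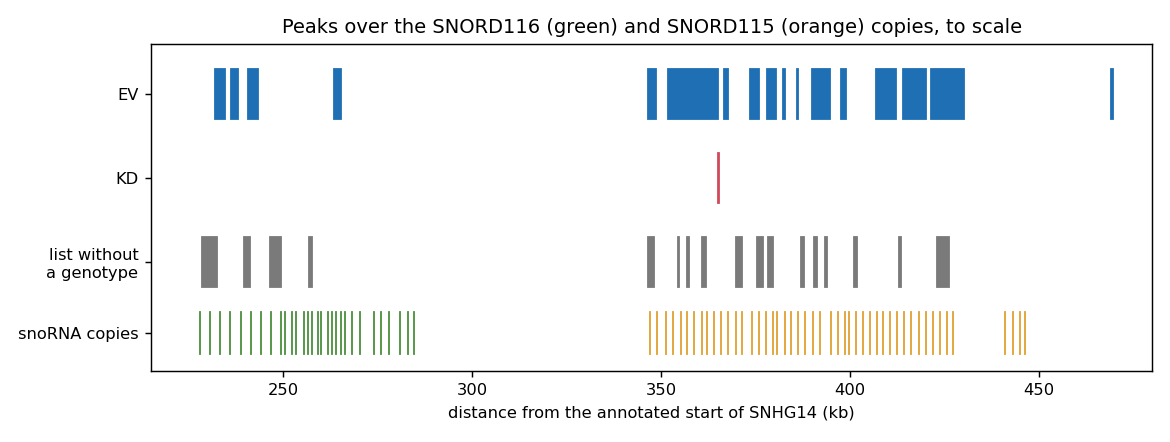
Peaks over the SNORD116 copies (green ticks) and SNORD115 copies (orange ticks) drawn to scale by distance from the start of SNHG14 (kb, horizontal axis), 1 row for each list. EV peaks cover 48.0% of the SNORD115 array and 15.6% of the SNORD116 array, and the KD list has a single 297 bp peak there.

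In EV the array peaks had a larger median width and a lower median −log10 p than the other peaks of the interval. Of the 16, 5 were wider than 4 kb and none of the other 20 of the interval was. Their median width was 2301 bp against 1162 bp for those 20, and their median −log10 p 3.802 against 4.63. In the list without a genotype the array peaks also had a larger median width, 1050 bp against 650 bp, but their median −log10 p was higher, 3.92 against 3.77, and the single KD array peak was the narrowest KD peak. All 7 EV peaks of the interval with a −log10 p of at least 6 lay outside the arrays. With EV limited to its 12650 strongest peaks, 3 array peaks covering 14.4 kb were left, and the ratio of KD to EV coverage was 0.0206 in the arrays and 0.207 in the interval, against 0.430 on chromosome 15 and 0.560 over all chromosomes. The interval's ratio was below that of chromosome 15 under each setting run. Without the arrays it was below under 4 of these settings and above with peaks within 3 kb merged, with 0.357 against 0.284.

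**Figure D4:**
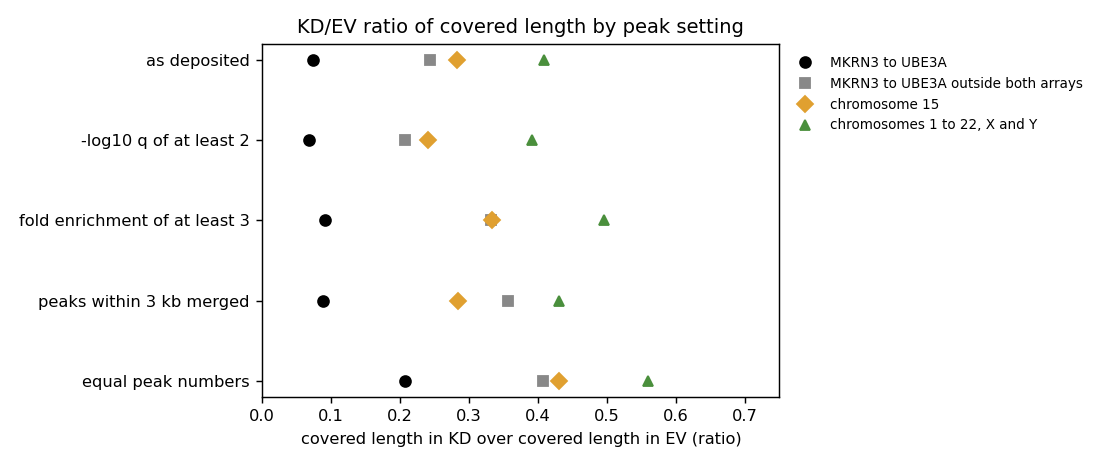
Covered length in KD over that in EV (horizontal axis) for the interval, the interval without the snoRNA arrays, chromosome 15 and chromosomes 1 to 22, X and Y, with peaks as deposited and under 4 other settings (rows). The whole interval lies lowest in every row, from 0.0677 to 0.207, while without the arrays it lies near chromosome 15.

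The overlap of the EV and KD lists was read by peak strength. Of the 36 EV peaks of the interval, 6 (16.7%, exact Clopper-Pearson 95% interval 6.37 to 32.8) were overlapped by KD by at least 1 bp, against 37.7% of all EV peaks. Such intervals cover counting error over peaks only. Among the 7 whose −log10 p reached 6, 5 were overlapped (71.4%, interval 29.04 to 96.3), near the 76.0% of all EV peaks this strong. Of the 29 weaker ones, 1 was overlapped (3.45%, interval 0.0873 to 17.8), against 18.4% of all weaker EV peaks. All 16 array peaks are among these 29. Neighbouring peaks over tandem copies are not independent, so this exact interval is too narrow. Strength was not matched further within the weaker peaks. Of the 7 KD peaks, 6 were overlapped by EV (85.7%, interval 42.1 to 99.6), near the 87.7% of all KD peaks on these chromosomes. In 5 of these 6 pairs the KD peak lay wholly inside the EV peak and was 45.9% to 76.9% as wide.

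The list without a genotype shared places with EV mainly in the arrays and none with KD. Of its 32 peaks, 12 were overlapped by EV (37.5%, interval 21.1 to 56.3), 11 of them in the arrays, against 50.2% of all its peaks on these chromosomes. None of the 32 was overlapped by KD (0%, interval 0 to 10.9), against 35.6% of all its peaks there. None of the 7 strongest EV peaks of the interval was overlapped by it (exact interval to 40.96%), against 42.6% of all EV peaks this strong. Its strongest peak of the interval, at 24630277 to 24630569 between PWRN1 and NPAP1, had a −log10 p of 6.05.

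**Figure D5:**
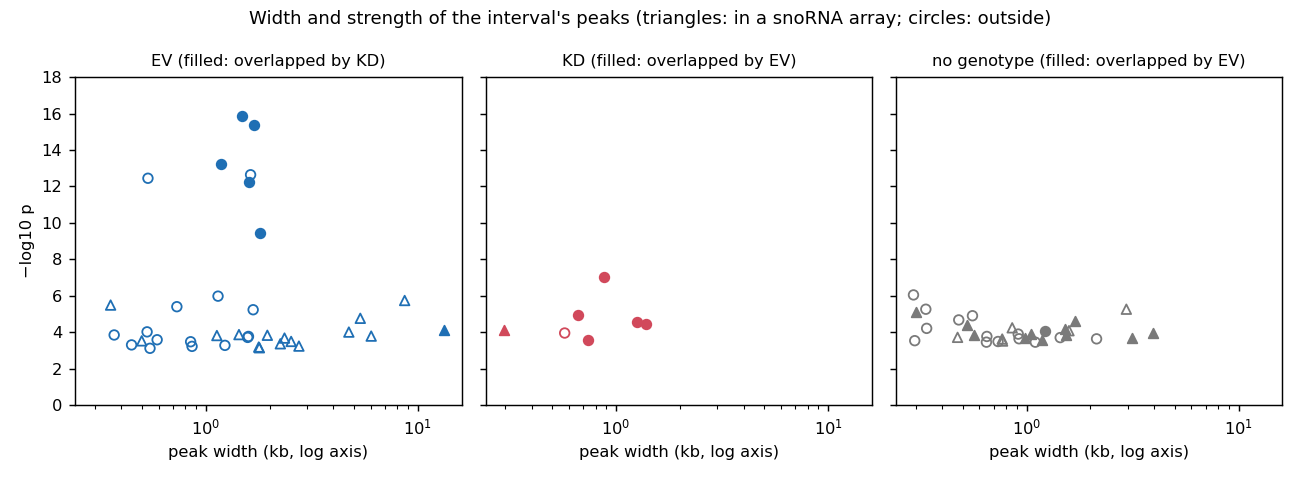
Width (kb, log axis) against −log10 p for every peak of the interval in the 3 lists, with triangles for peaks in a snoRNA array and circles for the others, filled in the EV panel where KD overlaps and in the other panels where EV overlaps. The 7 EV peaks above a −log10 p of 9 are all circles, 5 of them filled, and the widest EV peaks are triangles with a −log10 p below 6.

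UBE3A (positions 25333728 to 25439056, minus strand), the ubiquitin ligase lost in Angelman syndrome, had no peak in any list. The nearest EV peak ended 40.5 kb from its body, the nearest peak of the list without a genotype lay 84.0 kb away and the nearest KD peak 145 kb away. Of all gene bodies over 100 kb, 56% had a peak in EV. UBE3A, at 105 kb, lies at the lower edge of this class. The class below, 10 to 100 kb, had 20.2%, and the share for genes of its own length was not computed.

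The other non-coding genes of the domain carried few peaks. Of 16 listed, 15 were matched, and none had a peak in EV or KD. PWRN4 and PWRN1 had 3 peaks and 1 in the list without a genotype, over 1.65% and 1.62% of their bodies. IPW, PWAR1, PWAR5, PWAR6 and the single-copy snoRNAs SNORD64, SNORD107, SNORD108, SNORD109A and SNORD109B had none in any list. Of the 108 other annotated genes in the interval, 38 met a peak of any list, and 33 of these were SNORD115 or SNORD116 copies. Copies under the same peak are counted separately here, and the share of all genes that met a peak of any list was not computed. Among the rest, LOC107984787 was covered to 6.37% in EV, 6.65% in KD and not in the list without a genotype. LOC128966705, which overlaps the SNORD116 array, was covered to 41.6% in EV, 2.53% in the list without a genotype and not in KD, and LOC105370733 to 0.361% in EV and 0.453% in the list without a genotype.

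Of 11 genes flanking the interval, 9 had a peak in EV, 3 in KD and 4 in the list without a genotype. Among all genes the shares were 13.2%, 6.14% and 4.58%, but 6 of the 11 are over 100 kb long, where they were 56%, 28.6% and 25.4%, and 4 are 10 to 100 kb long, where they were 20.2%, 8% and 5.38%. The flanking genes had a median covered share of 1.39% in EV and 0 in the others. The 3 with a KD peak, CYFIP1, ATP10A and GABRG3, also had EV peaks. ATP10A, which encodes a lipid flippase and lies downstream of UBE3A, had 5 EV peaks, 1 KD peak and 5 in the list without a genotype, over 2.17%, 0.351% and 2.76% of its body. GABRG3, a subunit of the GABA-A receptor, was covered to 1.24%, 0.254% and 0.347%. NIPA1 and TUBGCP5, upstream of the imprinted genes, were covered to 7.36% and 5.89% in EV and had no peak in the other lists. GOLGA6L2 and HERC2 had none in any list, and both belong to families with near-identical copies.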

How the data were processed

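The 3 broad peak lists were deposited by the authors without headers. The submitters' processing notes name Bowtie2, MACS2 and GRCh38. Versions, options, control libraries, filters and pooling were not stated. Fold enrichment is a ratio over background computed by the authors' peak caller. The −log10 p and −log10 q are deposited values too, and were used within a list only. EV and KD lists were matched to samples by name, and the list without a genotype to none.

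Peak starts were converted to count from 1. Covered bases and overlaps (at least 1 bp) with RefSeq gene bodies were computed with Python 3.11.15, numpy 2.4.6 and pandas 2.3.3. Overlap calls were tested on simulated peaks, and coverage of sampled EV peaks was checked against bedtools 2.31.1. Exact intervals came from scipy 1.17.1, and plots from matplotlib 3.10.9. The annotation has no exons. As a chromosome's length, the highest gene or peak coordinate served. Any stretch without assembled sequence is thus counted, and it lowers the peak density and covered share of a whole chromosome. The genes named are the 8, the listed domain and flanking genes, up to 10 other genes of the interval with a peak, and the 3 most like MAGEL2. The planned promoter window of 300 bases around a start was reduced to the 250 before it. The array spans, the −log10 p limit of 6, the length classes and the motif were added after the peaks were seen. The members, lists and rules were chosen with earlier results of these data known. The alternatives tried were stricter thresholds, merged peaks, equal list lengths, extended gene bodies, another coverage or overlap criterion, and leaving out the arrays.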

Additional observations from a re-analysis of the deposited data

Results flagged for a closer look

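The list without a genotype, which enters no comparison of EV with KD, held 32 peaks between MKRN3 and UBE3A. It was singled out because it is signal in a file that the comparison does not use. Its peak in SNURF lay 130 bp downstream of an annotated SNRPN start. This peak was weak in its list, with a −log10 p of 3.64 and a −log10 q of 1.32.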

How the results depend on the processing

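Of 58 group values recomputed under 8 alternatives, 42 stayed within 1.5 times the main count or length, or within the exact interval of the main share. Some of these could not move. KD is the shortest list, so equal list lengths left its own counts unchanged. Its count of genes covered to at least 10%, 0 as deposited, could not fall under stricter filters. With a −log10 q of at least 2, the interval held 14 EV peaks over 41176 bp and 3 KD peaks over 2787 bp, and 100% of the KD peaks were overlapped by EV. With each list cut to the strongest 12650 peaks, the interval held 13 EV peaks over 27862 bp, of which 38.5% were overlapped by KD. With peaks within 3 kb merged, 6 of 6 KD peaks (100%) were overlapped by EV. This follows from the merging, which joined the only KD peak without an EV partner to a neighbour that had one. The count of genes covered to at least 10% in EV, 2 as deposited, was 0 at a −log10 q of at least 2, 0 when only peaks enriched 3-fold or more were kept and 0 with equal peak numbers, and 1 at a criterion of 25% of the body. Leaving out peaks in the snoRNA arrays, an alternative added after seeing the data, left 20 EV peaks over 22062 bp and 1 gene at 10%. MAGEL2 had no EV peak under the first 3 of these filters. No paired analysis was possible because each group has 1 library. The unknown depth limits all comparisons of peak number, and a place without a peak is not shown to lack the mark. KD has no input of its own, and the control used for each list was not stated, which limits comparisons of EV with KD as well.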
